A study of Rattus norvegicus with 4 samples.

Results

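The plasminogen system and the tissue inhibitors of metalloproteinases were followed in the rat adrenal medulla, where chromaffin cells store and release catecholamines. The genes were chosen with earlier results of these data known: the plasminogen activators Plat and Plau, the urokinase receptor gene Plaur, the inhibitor gene Serpinb2, and Timp1, Timp2 and Timp3. Every probe set, a group of short probes for one transcript, was taken if the platform's annotation lists it under 1 gene alone and that gene is one of these 7. This gave 13 probe sets for 7 genes, out of 20826 probe sets with a single symbol and 14217 genes named by them. Total RNA was measured on 4 single-colour arrays, 2 from rats immobilized for 2 h and 2 from unstressed rats. Immobilization is a restraint stress that activates the sympathetic nerves to the gland. The labels give no strain, age, sex, genotype or other agent. They also do not tell whether each array is a separate animal or a pool, so the p-values rest on a spread between arrays that can be purely technical, and 2 arrays per group leave that spread imprecise.

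Plasmin is a serine protease made from circulating plasminogen by tissue-type plasminogen activator, the product of Plat, or by urokinase, the product of Plau. Urokinase acts at the cell surface while bound to the receptor encoded by Plaur, and serpins such as plasminogen activator inhibitor type 2, the product of Serpinb2, inhibit both activators. Chromaffin cells are known to store tissue-type plasminogen activator in their catecholamine granules and to release it with the hormones, and plasmin can cut the granule protein chromogranin A. The Timp proteins inhibit matrix metalloproteinases, and TIMP-3, which binds to the extracellular matrix, also inhibits several ADAM and ADAMTS proteases.

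Promoter windows are shown for Plaur, Timp1 and Timp3, the genes that rose and have an entry in the RefSeq promoter table (GRCr8 build), so that the letters can be read beside the values given further on. Each window runs 5′ to 3′ from 250 bases before to 50 bases after the start site used by that table, and 6 of the 7 genes have one. Capitals mark matches, on either strand, to the AP-1 motif TGANTCA, the cAMP response element TGACGTCA or its core TGACG, which lies within the longer element.
Plaur, chr1:89181113-89181412, plus strand: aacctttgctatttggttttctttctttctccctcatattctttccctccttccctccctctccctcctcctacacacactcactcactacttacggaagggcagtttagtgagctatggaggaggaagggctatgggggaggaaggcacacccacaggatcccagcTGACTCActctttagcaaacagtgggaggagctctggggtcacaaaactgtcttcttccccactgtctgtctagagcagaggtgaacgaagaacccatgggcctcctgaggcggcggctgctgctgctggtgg
Timp1, chrX:3771073-3771372, minus strand: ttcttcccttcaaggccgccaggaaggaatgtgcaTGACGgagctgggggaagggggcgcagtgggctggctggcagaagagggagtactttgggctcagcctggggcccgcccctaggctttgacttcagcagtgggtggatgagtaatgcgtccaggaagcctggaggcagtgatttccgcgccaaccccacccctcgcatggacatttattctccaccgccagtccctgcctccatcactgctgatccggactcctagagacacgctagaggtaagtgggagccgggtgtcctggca
Timp3, chr7:19459509-19459808, minus strand: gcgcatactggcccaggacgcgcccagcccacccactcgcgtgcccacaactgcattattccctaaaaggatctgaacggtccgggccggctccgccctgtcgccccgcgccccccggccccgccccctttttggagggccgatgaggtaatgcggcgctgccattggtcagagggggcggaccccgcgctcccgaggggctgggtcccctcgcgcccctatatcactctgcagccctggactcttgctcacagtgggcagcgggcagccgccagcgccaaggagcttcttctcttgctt
The Plaur window holds an AP-1 match that begins at position -83 from the start site. The Timp1 window holds a TGACG core at position -215, and the Timp3 window holds no match to any of the 3 motifs. Among the windows not printed, Serpinb2 has an AP-1 match at position -189, and Plau and Timp2 have a TGACG core at positions -193 and -179. The windows of Timp1 and Serpinb2 lie wholly within the annotated span of their genes, so their start sites are not the outermost ones. AP-1 matches stand in 7.33% of the 33469 promoter windows in the table, the full cAMP response element in 1.83% and its TGACG core in 21.2%. A match describes letters only, and variants of these motifs were not sought, so a window without a match can still hold one.

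Of the 11 member probe sets that passed the filter on dim signals, 7 rose, none fell and 4 missed the threshold, against rises at 11.7% and calls in either direction at 31.1% of all 18625 tested probe sets. A call here is an adjusted p (Benjamini-Hochberg) below 0.05 in limma, a linear model that shares the estimate of spread across probe sets. The 7 rises belong to 4 genes, Plat, Plaur, Timp1 and Timp3, while the tested probe sets of Plau and Timp2 did not pass. With each gene represented by its brightest tested probe set, 4 of 6 genes rose, where 11.2% of 10320 genes rose and 21.8% fell. At 9 of the 11 probe sets the immobilized and unstressed readings were separate, against 67.8% of all tested probe sets. The median log2 difference of the 11 was 0.98, against -0.12 over all tested probe sets. One probe set of Plaur and the only probe set of Serpinb2 lay under the filter level, a mean intensity of about 543.8, and have values but no test. One of the 7 rises, that of Plaur, passed the filter through its immobilized readings alone, so these counts describe the tested probe sets and not all 13. Since the members were chosen with results in view, the counts are a description and not evidence that these genes stand apart.

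**Figure D1:**
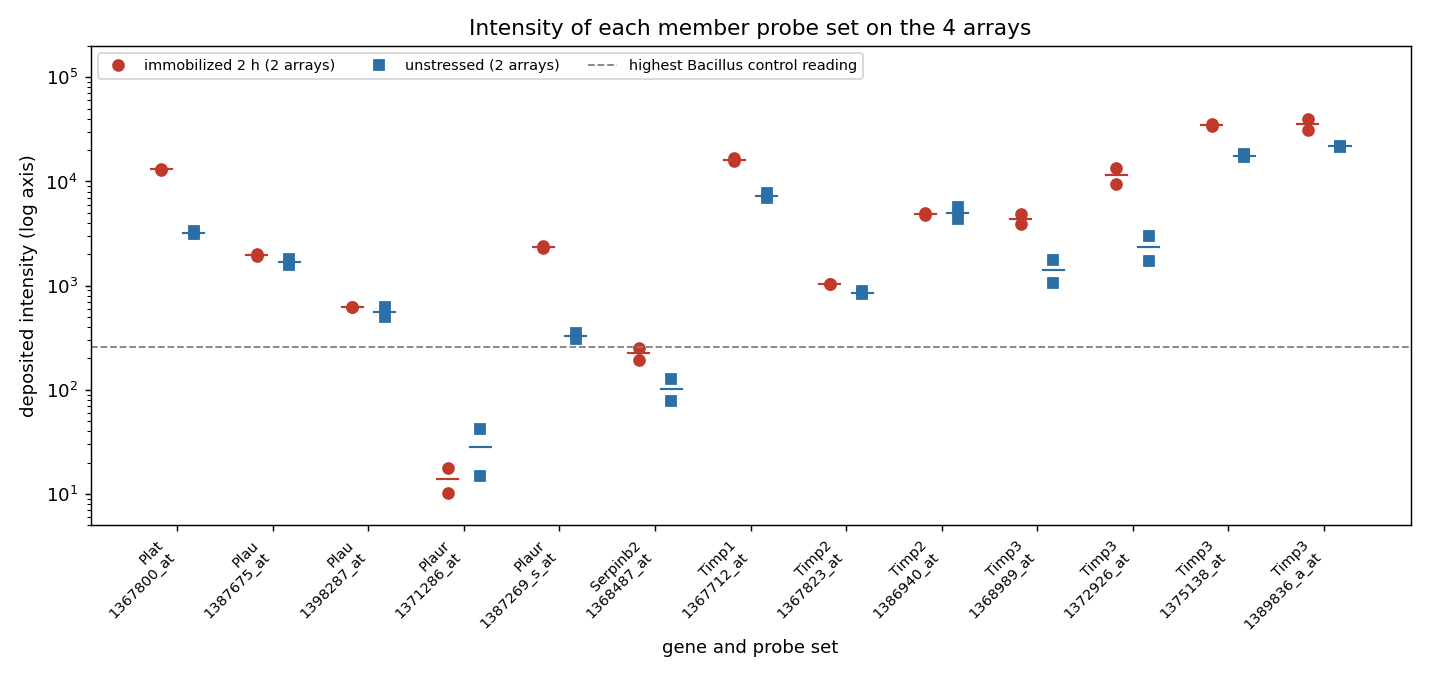
Deposited intensity on a log axis for the 13 probe sets of the 7 genes, with 2 arrays per group as points and the group mean as a short line; the dashed line is the highest reading of the Bacillus control probe sets, 257. Points can be compared within a probe set only; the immobilized arrays stand clear above the unstressed ones for Plat, for 1 Plaur probe set, for Timp1 and for all 4 Timp3 probe sets.

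Plat, the gene for tissue-type plasminogen activator, was about 4 times brighter after immobilization. Its probe set 1367800_at read 12938 and 13142 on the immobilized arrays, against 3328 and 3109 on the unstressed arrays. The arrays of a group lay close together and the groups were far apart. The rise of Plat was 2.01 ± 0.12 in log2(intensity + 16) units (SE, n = 2 per group), or 4.04-fold, with a 95% interval of 1.73 to 2.30 and an adjusted p of 1.55e-04 in limma. Only 1.85% of tested probe sets had a log2 change as large or larger. Plat lies on chromosome 16 of the GRCr8 assembly, at 75943061 to 76022037.

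Plau, the gene for urokinase, showed no difference past the threshold. Its brighter probe set, 1387675_at, read 2015 and 1922 on the immobilized arrays, against 1590 and 1799 on the unstressed arrays. The groups did not overlap, but the log2 difference of 0.22 had a 95% interval of -0.21 to 0.65 (adjusted p = 0.403 in limma). The dimmer probe set, 1398287_at, read 620 and 624 on the immobilized arrays and 499 and 624 on the unstressed arrays, with overlapping groups and a log2 difference of 0.15 (95% interval -0.41 to 0.71). Whether the changes of Plat and Plau differ from each other was not tested; the 95% interval of Plat lies wholly above both intervals of Plau.

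Plaur, the gene for the urokinase receptor, had the largest log2 change of the 7 genes. Probe set 1387269_s_at read 2287 and 2415 on the immobilized arrays, against 305 and 351 on the unstressed arrays. Both immobilized readings were far above both unstressed readings. The log2 change was 2.79 ± 0.22 (SE, n = 2 per group), a rise of 6.89-fold, with a 95% interval of 2.27 to 3.30 and an adjusted p of 3.77e-04 in limma. The unstressed readings lie under the filter level, so the probe set was tested because of its immobilized readings. With no filter its adjusted p was 0.00112. The suffix _s_at marks probes that can match more than 1 transcript.

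The other Plaur probe set, 1371286_at, designed from another sequence record, gave 17.6 and 10.2 on the immobilized arrays and 42.2 and 14.8 on the unstressed arrays. All 4 readings were no higher than those of the 27 probe sets for Bacillus transcripts, which serve as controls and read 2.18 to 257 over the 4 arrays. The rise of the gene rests on 1387269_s_at alone. Of 4 markers of neutrophils and monocytes with a probe set, cells in which Plaur is known to be expressed, 2 were higher with it. S100a9 read 905 and 839 on the immobilized arrays, against 122 and 180 on the unstressed arrays, and S100a8 read 375 and 341, against 14.8 and 82.5 (adjusted p = 0.00659 and 0.0277 in limma with no filter). The unstressed readings of both lie within the range of the Bacillus probe sets, so the sizes of these differences are not exact. None of the 4 passed the filter, and their summed intensity was 1491 and 1428 on the immobilized arrays, against 381 and 508 on the unstressed arrays. The other markers, Itgam and Csf3r, read 78.9 and 40.2 (Itgam) and 131 and 208 (Csf3r) on the immobilized arrays, against 59.9 and 41.6 (Itgam) and 185 and 204 (Csf3r) on the unstressed arrays. The part of such cells in the Plaur rise was not tested, and in whole tissue more cells of a type and more RNA per cell cannot be told apart.

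Serpinb2, the gene for plasminogen activator inhibitor type 2, was near background. Its probe set 1368487_at read 194 and 253 on the immobilized arrays, against 127 and 78.0 on the unstressed arrays. The groups did not overlap, but 3 of the 4 readings were no higher than the brightest Bacillus control on the same array, the exception being immobilized array 2. In the fit with no filter the log2 difference was 1.04 ± 0.43 (SE, n = 2 per group; adjusted p = 0.158 in limma).

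Timp1, the gene for an inducible inhibitor of metalloproteinases, more than doubled. Probe set 1367712_at read 16672 and 15799 on the immobilized arrays, against 7730 and 6911 on the unstressed arrays. The groups were clearly apart. The log2 rise of Timp1 was 1.15 ± 0.12 (SE, n = 2 per group), or 2.22-fold, with a 95% interval of 0.86 to 1.44 and an adjusted p of 0.00125 in limma. It was at percentile 89.4 of level among tested probe sets.

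Timp2, the gene for the inhibitor that also takes part in activating the enzyme encoded by Mmp2 at the cell surface, did not pass the test on either probe set. The brighter, 1386940_at, read 4773 and 5035 on the immobilized arrays, against 5659 and 4400 on the unstressed arrays, so the immobilized readings lay between the unstressed ones. Its log2 difference was -0.03, with a 95% interval of -0.40 to 0.35. The dimmer, 1367823_at, read 1045 and 1031 on the immobilized arrays, against 826 and 880 on the unstressed arrays, a log2 difference of 0.28 (95% interval -0.22 to 0.78, adjusted p = 0.349 in limma). The sign of 1386940_at depended on the scaling: the difference was 0.02 with quantile normalization and 0.11 with each array centred on its own median. The 95% interval of Timp1 lies wholly above both Timp2 intervals; the difference between the genes was not tested.

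**Figure D2:**
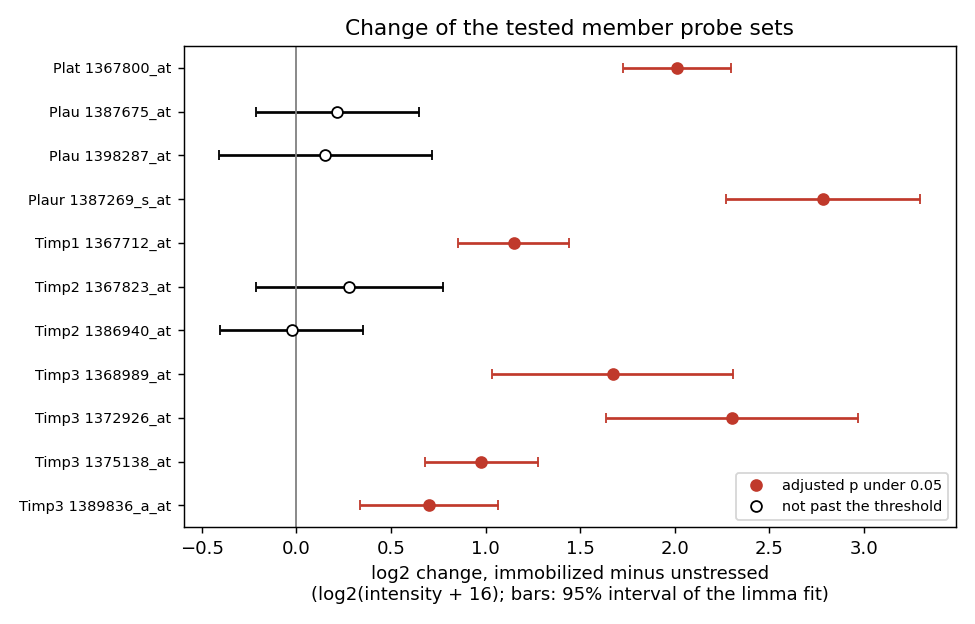
Log2 change, immobilized minus unstressed, for the 11 tested probe sets, as points with the 95% interval of the limma fit; filled points passed an adjusted p of 0.05. The intervals of Plat, Plaur, Timp1 and the 4 Timp3 probe sets lie above 0, from 0.34 at the lowest bound, and those of Plau and Timp2 include 0.

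Timp3, the gene for the matrix-bound inhibitor, rose on all 4 of its probe sets, by amounts that differed. The bright probe sets gave the smaller changes. Probe set 1375138_at read 35892 and 33957 on the immobilized arrays, against 17230 and 18244 on the unstressed arrays, a log2 rise of 0.98 ± 0.13 (SE, n = 2 per group; adjusted p = 0.00233 in limma). Probe set 1389836_a_at read 39818 and 31495 on the immobilized arrays, against 21993 and 21538 on the unstressed arrays, a log2 rise of 0.70 ± 0.15 (adjusted p = 0.0156 in limma). Both lay at or above percentile 97.2 of level. The adjusted p of 1389836_a_at was 0.0576 without immobilized array 1.

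The 2 other Timp3 probe sets gave larger changes and wider scatter. Probe set 1372926_at read 9448 and 13466 on the immobilized arrays, against 1732 and 2984 on the unstressed arrays, a log2 rise of 2.30 ± 0.28 (adjusted p = 0.00193 in limma). Probe set 1368989_at read 3884 and 4903 on the immobilized arrays, against 1049 and 1753 on the unstressed arrays, a log2 rise of 1.67 ± 0.27 (adjusted p = 0.00511). On both, unstressed array 1 was the lowest of the 4 and immobilized array 2 the highest, whereas immobilized array 1 was the highest on both bright probe sets. The call on 1368989_at was lost without immobilized array 2 (log2 change 1.51, adjusted p = 0.0714 in limma). The 95% interval of 1372926_at, 1.64 to 2.97, does not meet those of the bright probe sets, 0.68 to 1.28 for 1375138_at and 0.34 to 1.07 for 1389836_a_at. The size of the Timp3 change therefore depended on which probe set was read, and the mean of the 4 on the log2 scale changed by 1.41 (adjusted p = 0.00123 in limma). The parts of signal level and of transcript ends in this spread were not tested.

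**Figure D3:**
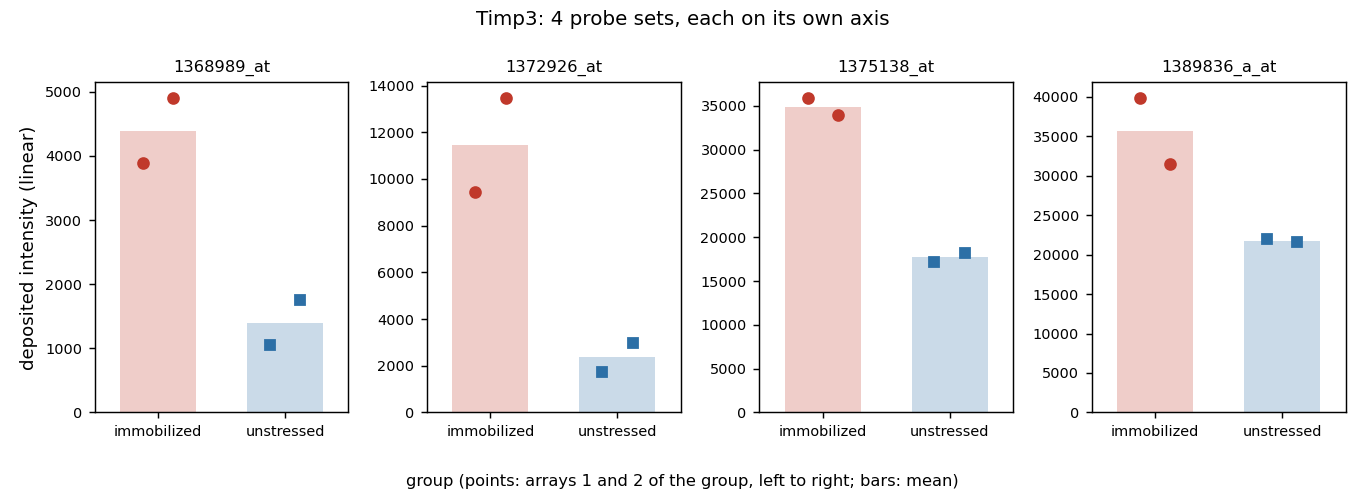
Deposited intensity of the 4 Timp3 probe sets, each on its own linear axis from 0, with arrays 1 and 2 of each group as points and the group mean as a bar. The immobilized arrays lie above the unstressed arrays in each panel, with ratios of mean intensity of 3.14, 4.86, 1.97 and 1.64 from left to right.

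The other genes of the plasminogen system were read from a list of 35 genes that includes 4 of the members. Of its 25 tested genes, 9 rose, 3 fell and 13 did not pass, and without the members 7 of 22 rose and 3 fell. These counts read each gene on its brightest tested probe set. With a gene counted if any of its tested probe sets passed, 10 rose and 4 fell. That adds Itgav, with 1 of 3 probe sets risen, and Lrpap1, with 1 of 2 fallen. Over all tested genes, 11.2% rose and 21.8% fell. The list was chosen with earlier results of these data known, so its counts are a description. The list's median log2 difference, with the members included, was 0.22, against -0.14 over all tested genes. Plasminogen itself, the gene Plg, was not shown above background: it read 87.3 and 28.8 on the immobilized arrays and 190 and 54.8 on the unstressed arrays, all within the Bacillus range, and it is known to be made mainly in liver.

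Apart from the members, Thbd and Tfpi2 had the largest rises of this list. Thbd, the gene for thrombomodulin, which binds thrombin and slows clotting and fibrinolysis alike, read 12499 and 13244 on the immobilized arrays, against 1713 and 1834 on the unstressed arrays. Its log2 change was 2.85 ± 0.13 (adjusted p = 6.02e-05 in limma), and its 3 probe sets ranged from 2.78 to 3.04. Tfpi2, which encodes an inhibitor of plasmin and related proteases, read 2354 and 3017 on the immobilized arrays, against 615 and 803 on the unstressed arrays, a log2 rise of 1.90 ± 0.24 (adjusted p = 0.00208). F3, the gene for tissue factor, the starter of clotting, rose by 1.16. Tfpi, which inhibits it, had differences of -0.22 and 0.31 on its 2 probe sets, and neither passed. F2rl1 and F2r, receptors cut by trypsin-like proteases and thrombin, rose by 1.39 and 0.51, and Itgb3, a subunit of an integrin that binds vitronectin, by 1.02. The calls on F3 and Itgb3 were lost without either immobilized array, and that on F2rl1 without immobilized array 1. Far fewer of all tested probe sets were called when an immobilized array was left out. Without immobilized array 1 or 2, F3 was at 1.03 and 1.29 and Itgb3 at 0.93 and 1.12. F2r lost its call with any 1 array left out and without the intensity trend (adjusted p = 0.0635 in limma).

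Among the binding sites of plasminogen and its activators, S100a10, a subunit of a plasminogen receptor on the cell surface, rose by 0.57 ± 0.13 (adjusted p = 0.0159 in limma). It read 23150 and 22739 on the immobilized arrays, against 16388 and 14495 on the unstressed arrays. Its partner Anxa2 had a difference of -0.07, and Eno1, also able to bind plasminogen, one of -0.06. Plgrkt, a plasminogen receptor known from catecholaminergic cells, fell to 2138 and 1540 on the immobilized arrays, against 2901 and 2864 on the unstressed arrays, a log2 change of -0.66 (adjusted p = 0.0479). Igf2r, a binding partner of the urokinase receptor, changed by -0.40, and Met, the receptor of hepatocyte growth factor, by -1.29, with adjusted p of 0.0413 and 0.0463. These 3 falls lay at the edge of the threshold. With no filter none of the 3 passed (0.065, 0.0659 and 0.0776), nor did they after median centring. With 1 array left out their adjusted p lay between 0.0557 and 0.257, except for Met without unstressed array 1 (0.000603). S100a10 lost its call without immobilized array 1, immobilized array 2 or unstressed array 2 (adjusted p = 0.0695 to 0.0775).

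The largest differences of this list that missed the threshold were those of Serpini1, Serpine2 and Vldlr. Serpini1, which encodes neuroserpin, an inhibitor of tissue-type plasminogen activator in nervous tissue, had a difference of 0.39 (adjusted p = 0.174 in limma). It depended on which unstressed array was kept: without array 1 it was 0.66 and passed (adjusted p = 0.00865), and without array 2 it was 0.12. Serpine2, the gene for protease nexin 1, had 0.34, and Vldlr, a clearance receptor for activator and inhibitor complexes, 0.31. Of 11 tested genes for other protease inhibitors 1 rose and 1 fell, where 11.2% of all tested genes rose and 21.8% fell. Cstb, the gene for the cathepsin inhibitor cystatin B, rose by 0.75 and Serpinh1, a collagen chaperone of the serpin family, changed by -0.78. Serpinc1, Slpi and Serpinb9 had differences of 0.73, 0.61 and -0.59, with adjusted p of 0.0681, 0.0501 and 0.0524 in limma. The calls on these 3 depended on the processing, and after quantile normalization Slpi and Serpinb9 passed (0.0226 and 0.0266).

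Metalloproteinase genes of the Mmp and Adam families were read beside the inhibitors; not every ADAM protease is inhibited by a TIMP. Of 7 tested metalloproteinase genes of the Mmp family 0 rose, 3 fell and 4 did not pass, and of 6 tested Adam genes 2 rose, 1 fell and 3 did not pass, where 11.2% of all tested genes rose and 21.8% fell. Mmp14, the gene for a membrane-bound collagenase that also activates the Mmp2 enzyme, read 9881 and 7415 on the immobilized arrays, against 21881 and 22158 on the unstressed arrays. Its log2 change was -1.36 ± 0.16 (SE, n = 2 per group; adjusted p = 0.0017 in limma), and both of its probe sets fell. Mmp19 changed by -0.89 and Mmp24 by -0.39, with adjusted p of 0.0429 and 0.0415, and neither passed with no filter (0.0634 and 0.0653), without either immobilized array (0.0904 to 0.225) or without unstressed array 2 (0.112 and 0.0786). Of the 3 tested probe sets of Mmp24 only this one passed, and the 3 ranged from -0.39 to 0.30. Adam17, whose product is inhibited by TIMP-3, fell to 5167 and 5222 on the immobilized arrays, against 7383 and 10408 on the unstressed arrays, a change of -0.75 (adjusted p = 0.0201). Adam8 rose by 1.06 and Adam15 by 0.64, Adam8 with immobilized readings of 872 and 729, through which alone it passed the filter, against unstressed readings of 316 and 439. The calls on these 3 Adam genes were lost without either immobilized array, where far fewer of all tested probe sets were called. Those on Adam8 and Adam15 were also lost without unstressed array 1. Without immobilized array 1 or 2, Adam17 was at -0.75 and -0.76, Adam8 at 0.94 and 1.19, and Adam15 at 0.58 and 0.71. Adam8 did not pass with no filter either (adjusted p = 0.061 in limma).

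Of the whole metalloproteinase list, 24 genes were tested, 4 rose and 5 fell, with a median of -0.01. The share of falls is near the 21.8% over all tested genes. The 2 rises other than those of Timp1 and Timp3 were Adam8 and Adam15, and the fifth fall was that of Kdr, a receptor to which TIMP-3 is known to bind, at -0.79. Its call was lost without the intensity trend, after median centring and without either immobilized array (adjusted p = 0.0511 to 0.148). Adam9 and Adam10 had differences of -0.45 and -0.43 and Itga3 one of 0.33, and none of the 3 passed. Without unstressed array 1 both Itga3 and Adam10 passed (0.698 and -0.83, adjusted p = 0.00596 and 0.0116 in limma), and without unstressed array 2 they were at -0.039 and -0.033. Timp4, the remaining member of the Timp family, had 0.27 (adjusted p = 0.354 in limma), so 2 of the 4 Timp genes rose. The filter left 10 of the 17 Mmp genes with a probe set untested, Mmp3 and Mmp9 among them.

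**Figure D4:**
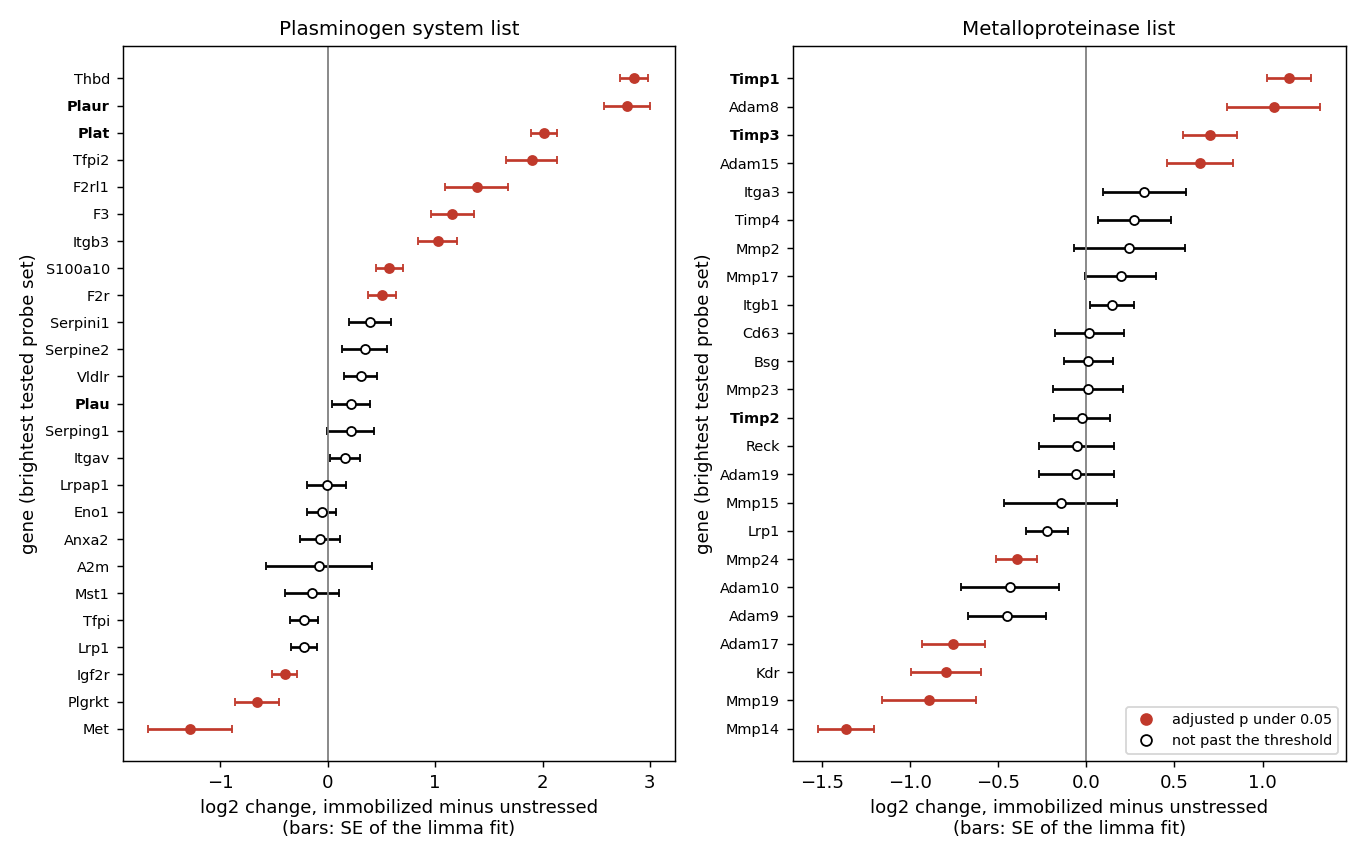
Log2 change, immobilized minus unstressed, of each tested gene of the plasminogen system list (left) and the metalloproteinase list (right), as points with the SE of the limma fit; filled points passed an adjusted p of 0.05, and the names of the members are bold. Thbd at 2.85, Plaur at 2.79 and Plat at 2.01 lead the left panel, and Timp1 at 1.15 and Mmp14 at -1.36 are the ends of the right panel. Each gene stands at its brightest tested probe set, which for Timp3 gave 0.70, the smallest of its 4 changes.

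The closest patterns over the 4 arrays were found by the Euclidean distance between log2 values after centring each probe set on its own mean. Nearest to Plat were Nab2, a corepressor of the Egr factors (distance 0.0573), Ezr, which links membrane and actin, and Tgfb2. Nearest to Plaur were Thbd (0.0944), Gadd45a and Cish, and nearest to Timp1 were Chd7 (0.0616), Midn and Bcr. Nearest to Timp3, read on its brightest probe set, were Spred3 (0.0494), Ly6al and Gjc1. For Plau they were Sec31a (0.0293), Alkbh6 and Ndufa7, and for Timp2 Terf2 (0.0224), RT1-Db1 and Txndc16. The log2 changes of these neighbours were 1.97 to 2.12 for Plat, 2.79 to 2.88 for Plaur, 1.16 to 1.19 for Timp1 and 0.69 to 0.74 for Timp3. Genes chosen by this distance must have changes close to that of the member, so the likeness follows from the choice. Shared regulation was not tested.

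Th, the gene for the first enzyme of catecholamine synthesis, read 68379 and 44651 on the immobilized arrays and 54049 and 55633 on the unstressed arrays, and 0 of 7 tested chromaffin markers passed the test. Cortex markers were bright as well: Cyp11b1 read 18432 and 18634 on the immobilized arrays, against 23128 and 35901 on the unstressed arrays, and the summed intensity of the list was 276701 and 207638 on the immobilized arrays, against 257132 and 292082 on the unstressed arrays. Of 6 tested cortex markers 1 passed, Nr5a1 at 0.47, and its call was lost with no filter (adjusted p = 0.0702). The median of the 6 was -0.26. Cyp11a1, Cyp11b1, Cyp21a1 and Hsd3b1, none of which passed, lay between -0.64 and -0.24, and Star was at 0.07. Of 5 smooth muscle and pericyte markers 2, Acta2 and Tagln, rose, by 1.36 and 0.84, while Myh11, Rgs5 and Pdgfrb, with differences of 0.31, 0.07 and 0.02, did not pass. The summed intensity of the list was 29052 and 29808 on the immobilized arrays, against 18744 and 16615 on the unstressed arrays, a difference carried mostly by Acta2 and Tagln. None of 6 fibroblast and 7 macrophage markers passed, and their medians were -0.03 and 0.15. Of 6 endothelial markers 1 rose, Flt1, and 1 fell, Kdr, and of 3 Schwann and sustentacular markers 1 rose, Gfap, and 1 fell, S100b. The part of such cells in the changes of the members was not tested. The split of all calls moved with the scaling: rises made up 37.6% as deposited, 44.9% with quantile normalization and 53.2% with median centring, which moved the median log2 difference to 0.02.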

How the data were processed

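Rat adrenal medulla RNA was measured on 4 arrays, 2 immobilized and 2 unstressed, grouped by the submitters' sample descriptions; replicate numbers follow accession order. The deposited table holds 1 intensity per probe set and array, on a linear scale; the authors' way of summarising probes is not stated in the labels or header. The values show that each deposited column has a trimmed mean of 2500 (2% left out at each end), and this scaling was kept. Detection calls were not used. Of 31099 probe sets, 57 controls were left out. Values were turned into log2(intensity + 16), which understates changes of dim probe sets. A filter at the 40th percentile of the mean log2 value left 12417 probe sets untested.

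The comparison used limma 3.58.1 under R 4.3.3 (lmFit, eBayes with an intensity trend, two-sided), Benjamini-Hochberg adjusted over all 18625 tested probe sets. With 2 arrays against 2 no exact permutation test can reach 0.05, so none is given. The fit was tested on simulated data. A gene in a list was represented by its brightest tested probe set. Genes were named from GEO's platform annotation, updated by Entrez identifier, with 0 symbols changed. Members and lists were chosen with earlier results of these data known. Named in the text are all members, all called list genes, the 3 largest uncalled changes per list, and the 3 nearest genes of each tested member, skipping bare locus names; other genes were named after their values were seen. Alternatives were quantile normalization, median centring, offsets of 1 and 64, no filter, a filter at the 60th percentile, no trend, robust variance, a threshold of 0.10, gene means, and each array left out. List counts were also taken with a gene counted if any of its tested probe sets passed. When 1 array was left out, its lone partner was taken to vary as much as the other group. Far fewer of all tested probe sets were called without an immobilized array, so a call lost there is not particular to that gene. Plots used matplotlib 3.10.9.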

Additional observations from a re-analysis of the deposited data

How the results depend on the processing

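The rises of Plat, of Plaur on 1387269_s_at, of Timp1 and of Timp3 on 1372926_at and 1375138_at passed under every alternative that gave a value, with Plat between 1.96 and 2.15, Plaur between 2.62 and 2.92 and Timp1 between 1.07 and 1.29; Plaur fell under the filter at the 60th percentile. The number of member probe sets that rose was 6 or 7 throughout, and 0 fell. Leaving out 1 array at a time gave 1.31 to 2.04 for Timp3 on 1368989_at and 0.53 to 0.87 on 1389836_a_at, each with 1 lost call. Changes that did not pass turned sign: Plau on 1398287_at ranged from -0.0051 to 0.31 and Timp2 on 1386940_at from -0.21 to 0.16 with 1 array left out, and Timp2 gave 0.020 after quantile normalization, 0.11 after median centring and 0.13 as the mean of its probe sets. Itga3 ranged from -0.039 without unstressed array 2 to 0.698 without unstressed array 1. The mean of the Plaur probe sets lay under the filter. No paired analysis was possible because the labels give no replicate number shared between the groups.

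Over all tested probe sets 2180 rose and 3619 fell, 2581 and 3169 after quantile normalization, and 2844 and 2497 after median centring. With 1 array left out rises ranged from 785 to 2638 and falls from 893 to 3800, lowest without an immobilized array (973 and 1088 without array 1, 785 and 893 without array 2). Falls in the plasminogen system list were 0 after median centring, with no filter and with no trend, and 1 after quantile normalization; with 1 array left out there were 4 to 9 rises and 0 to 1 falls. Falls in the metalloproteinase list were 2 after median centring and 3 with no trend; with 1 array left out there were 1 to 4 rises and 1 to 6 falls. The other inhibitors gave 2 rises and 2 falls with the 60th percentile filter, quantile normalization and robust variance, 3 rises after median centring, 2 with no trend, 3 and 2 at a threshold of 0.10, and 1 to 2 of each with 1 array left out. The cause of these differences was not tested.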

Other observations

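Timp1 lies within the synapsin gene Syn1 on chromosome X and Timp3 within Syn3 on chromosome 7 of the GRCr8 assembly, synapsins being vesicle proteins of nerve terminals. The genes were looked up for their position. Syn1 did not pass on either probe set: 1390196_at read 2900 and 1890 on the immobilized arrays, against 2081 and 1221 on the unstressed arrays, a log2 difference of 0.55 (adjusted p = 0.228 in limma), and 1369251_a_at had a difference of 0.0023. Syn3 read 157 and 81.4 on the immobilized arrays, against 242 and 161 on the unstressed arrays, under the filter level. Plat overlaps Ikbkb and Timp2 overlaps Cep295nl, in both cases without lying within the other gene. Ikbkb did not pass on 1368424_at, with a log2 difference of 0.09 (adjusted p = 0.653 in limma). Its probe set 1397547_at and that of Cep295nl were under the filter level. Whether the members and the genes they overlap differ in their change was not tested.

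Among the Mmp genes under the filter level, Mmp11, which encodes stromelysin-3, read 121 and 29.3 on the immobilized arrays, against 898 and 1246 on the unstressed arrays, and was picked out after its values were seen. Both immobilized readings were no higher than those of the Bacillus controls, so no fold is given. In the fit with no filter the adjusted p of Mmp11 was 0.0084 in limma.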
